A study of Mus musculus with 8 samples.

Results

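The expression of 10 genes that encode volume-regulated and other chloride channels, or proteins studied as such, was followed in astrocytes with and without the potassium channel Kir4.1. They are the 5 LRRC8 genes Lrrc8a, Lrrc8b, Lrrc8c, Lrrc8d and Lrrc8e, the CLC genes Clcn2 and Clcn3, the tweety genes Ttyh1 and Ttyh2, and the TMEM16 gene Ano6. These 10 of 39179 gene identifiers in the count tables were taken by symbol from the authors' deposited comparison and joined by Ensembl identifier to the counts. RNA was measured by RNA-seq in Aldh1l1-GFP+ cells sorted from mouse spinal cord at postnatal days 12 to 14. The control group holds 4 libraries (S1, S2, S6 and S7) from cre-negative animals labelled wild-type, and the knockout group, called cKO, holds 4 libraries (S3, S4, S5 and S8) from animals with Aldh1l1-cre and floxed Kir4.1 (Kcnj10) alleles. Both groups carry the Aldh1l1-GFP reporter on a mixed Swiss-Webster background. Aldh1l1-cre acts in the astrocyte lineage as a whole, so the deletion is not limited to one type of spinal astrocyte. The labels do not say whether the controls carry floxed alleles, which sex the animals had, or whether animals were pooled. The series describes the 4 samples of each group as biological replicates, and its title asks how astrocytic Kir4.1 bears on the interaction with fast motor neurons.

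Kir4.1 carries potassium across the astrocyte membrane, and astrocytes that take up potassium also take up chloride and water and swell. Volume-regulated anion channels open when a cell swells and release chloride and organic osmolytes such as taurine and glutamate, which lets the cell shrink back. They are assembled from LRRC8 proteins, of which LRRC8A is required, while the other members set what the channel conducts. ClC-2 is a plasma membrane chloride channel that GlialCAM (Hepacam) binds in glia, ClC-3 is a chloride and proton exchanger of endosomes, the tweety homologues were proposed as anion channels and this role is debated, and Ano6 is a calcium-activated phospholipid scramblase that also conducts ions.

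Gene reads per library ranged from 13892736 to 25065686, and 17312 to 20470 genes were detected. Kcnj10 itself lay between 1181 and 2306 CPM (read counts scaled to library size, with TMM factors) in the controls and between 27.2 and 37.6 CPM in cKO. Its log2 fold change from edgeR was −5.74, with a standard error of 0.25 and an adjusted p of 7.518e-08, and no library went against its label. The summed level of 10 astrocyte markers was 15077 to 22855 CPM in controls and 18186 to 22300 CPM in cKO, with none at 0 in any library. Of these markers Aqp4 and Aldh1l1 rose in cKO, by 1.095 and 1.01 on the log2 scale (adjusted p from edgeR 0.02435 and 0.0179), and the other 8 did not pass the test. Oligodendrocyte markers summed to 1572 to 3207 CPM in controls and 1055 to 2557 CPM in cKO, and markers of oligodendrocyte precursors to 343 to 1151 and 236 to 516 CPM, again with none at 0. The ranges in controls and cKO were 51.3 to 89.05 and 34.5 to 56.8 CPM for neurons, 42.5 to 67.1 and 19.6 to 52.45 CPM for endothelium, 12.6 to 29.4 and 9.57 to 47.2 CPM for microglia, 29.8 to 49.05 and 35.2 to 38.2 CPM for mural cells, and 109 to 575 and 75.75 to 149.7 CPM for fibroblasts. They were 6.91 to 29.5 and 8.73 to 22.98 CPM for ependymal cells, 78.2 to 183.6 and 107.7 to 199.2 CPM for Schwann cells, and 0 to 4.31 and 0 to 1.25 CPM for erythroid cells. All tested markers of oligodendrocytes (12), precursors (6), endothelium (8) and fibroblasts (5) had a fitted log2 fold change below 0. At an adjusted p under 0.05 edgeR called 0 of these markers, with 0.318% of all genes tested called. The part of these cell types in the results that follow was not tested. Values by library are given in the order S1, S2, S6, S7 for controls and S3, S4, S5, S8 for cKO, and a mean is followed by the SD of 4 libraries.

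The positions given here are from GENCODE release M21 on GRCm38. Lrrc8a (ENSMUSG00000007476) occupies 30237715 to 30263790 of chromosome 2, on the plus strand. Lrrc8b, Lrrc8c and Lrrc8d lie side by side on chromosome 5, all on the plus strand, from 105415775 to 105490074, from 105519388 to 105613018 and from 105699969 to 105832436, with gaps of 29313 and 86950 bases between them. Lrrc8e (from 4226827 to 4237470, plus strand) and Clcn3 (from 60910389 to 60983300, minus strand) are on chromosome 8. Ttyh1 is on chromosome 7 (from 4119408 to 4136708, plus strand), Ttyh2 on chromosome 11 (from 114675431 to 114720977, plus strand), Ano6 on chromosome 15 (from 95790843 to 95974751, plus strand) and Clcn2 on chromosome 16 (from 20702964 to 20717746, minus strand).

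The symbol Lrrc8a stood on 2 identifiers in the authors' deposited comparison. The other one, ENSMUSG00000099041, is Gm28035 in the annotation used, overlaps Lrrc8a on the same strand and shares 66.2% of the exonic length of Lrrc8a. It held 1 to 22 reads per library against 2437 to 3582 for Lrrc8a, and was left out. A read on exons of both genes cannot be given to one of them. The count tables list 0.723% to 0.934% of reads as ambiguous, and how many of those fall on Lrrc8a is not known from these files. Exons of Lrrc8d, Clcn2, Ttyh1 and Ano6 overlap exons of genes on the other strand (Lrrc8dos, Fam131a and Polr2h, 9430041J12Rik and D030047H15Rik, and A130051J06Rik), each over 1.36% to 3.83% of the member's exonic length. Exons of 1700084E18Rik and Gm49172, which overlap Lrrc8a and Ano6, were not used here. The strand setting of the counting is not given in the sources used here, so such reads are uncertain.

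Per length, Ttyh1 was the most abundant of the 10 genes. It reached 252 ± 36.5 CPM per kilobase of exon in controls, against 181 ± 10.2 in cKO (SD, n = 4 each), which places it at rank 63 of 14576 tested genes with a known exon length. Ttyh2 (39.5 ± 6.35 and 43.5 ± 4.1 CPM per kilobase, SD, n = 4 each) and Lrrc8a (43.0 ± 12.9 and 33.0 ± 3.69) came next, at ranks 397 and 448. Clcn3 (8.29 ± 0.687 and 7.64 ± 0.481), Clcn2 (5.50 ± 1.87 and 7.13 ± 1.67) and Ano6 (3.17 ± 0.384 and 3.75 ± 0.844) formed a middle tier. Lrrc8c, Lrrc8d and Lrrc8b were lower, at 0.776 to 2.05 CPM per kilobase as group means, and Lrrc8e was lowest, at 0.532 ± 0.119 and 0.609 ± 0.0813 (SD, n = 4 each). Neighbours in this order often shared their range. Lrrc8a and Ttyh2 overlapped in controls, where Lrrc8a was the higher in 3 of 4 libraries, but not in cKO, where Ttyh2 was the higher in 4 of 4. The length used for Lrrc8a was 4308 bases, of which 1455 are shared with no other counted gene. Reads on its shared exons may be missing from its count. The level of Lrrc8a, its rank and its order against Ttyh2 therefore depend on that length. The ranges of Clcn3 and Clcn2 overlapped in both groups, as did those of Lrrc8c with Lrrc8d and of Lrrc8b with Lrrc8e. Ano6 overlapped Lrrc8c in controls, and in cKO it lay above Lrrc8d, its next neighbour, without overlap. Ttyh1 did not overlap any neighbour in either group.

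**Figure D1:**
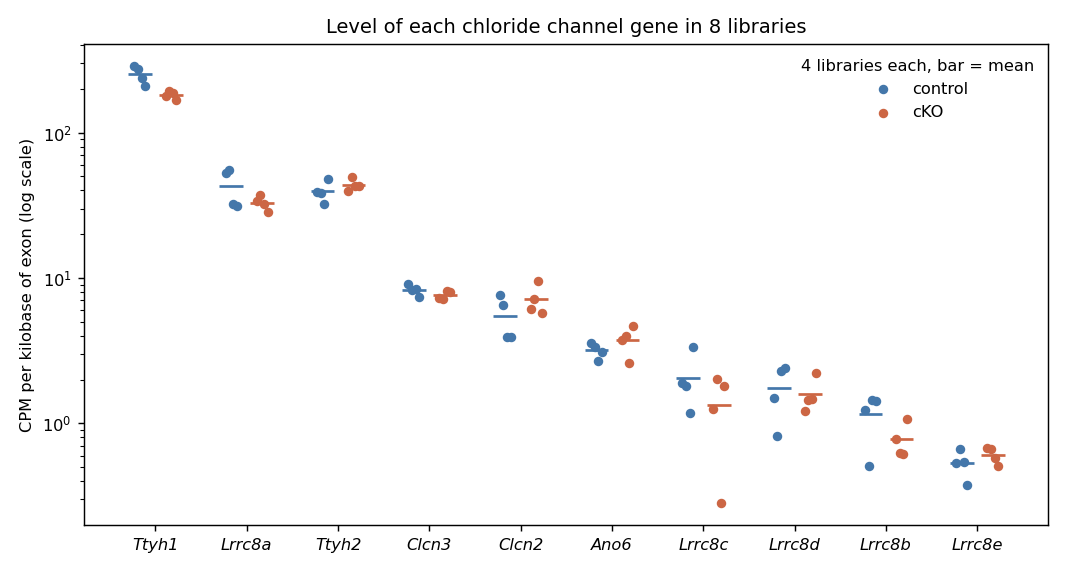
Each point is 1 library, the vertical axis is CPM per kilobase of exon on a log scale, the genes are ordered by their control mean, and the bar is the mean of 4 libraries. Ttyh1 lies above all other members in both groups, and the lowest single value is that of Lrrc8c in cKO S5, at 0.283.

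The order was not the same in the deposited FPKM values, in which read assignment as well as gene length can differ. There Lrrc8a was at 143 ± 43.8 FPKM in controls and 123 ± 12.9 FPKM in cKO (SD, n = 4 each), above Ttyh2 at 58.3 ± 8.47 and 63.1 ± 5.66 FPKM. Lrrc8d was at 14.8 ± 6.76 and 15.96 ± 5.58 FPKM, above Lrrc8c at 2.98 ± 1.196 and 4.18 ± 2.40 FPKM. The Lrrc8d means also lay above those of Ano6, at 8.40 ± 1.19 and 9.97 ± 1.85 FPKM. Ttyh1 stayed highest, at 1268 ± 122 and 820 ± 129 FPKM.

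Between control and cKO astrocytes the fitted log2 differences of these genes ran from −0.61 (Lrrc8c) to 0.37 (Clcn2), and none passed the test. The quasi-likelihood test of edgeR, adjusted by Benjamini-Hochberg over 14757 genes, gave 0 of the 10 members an adjusted p under 0.05, where 0.318% of all genes tested had one. All 10 members had enough reads to be tested. At an unadjusted p under 0.05 there was 1 member, Ttyh1, against 9.81% of all genes. DESeq2, which called 2.49% of its genes, and limma-voom, which called 0.325%, also called 0 of 10 members on the same counts. In the deposited FPKM values limma called 0 of 10 as well, where it called 0.0542% of genes with a pseudocount of 0.1 and 0.0474% with 1. The authors' deposited table called 1 of 10, Ttyh1, with 2.87% of its genes called. The fitted change was below 0 for 6 members, 4 of them LRRC8 genes, and above 0 for 4, with a median log2 fold change of −0.13 over the members and −0.017 over all genes tested.

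**Figure D2:**
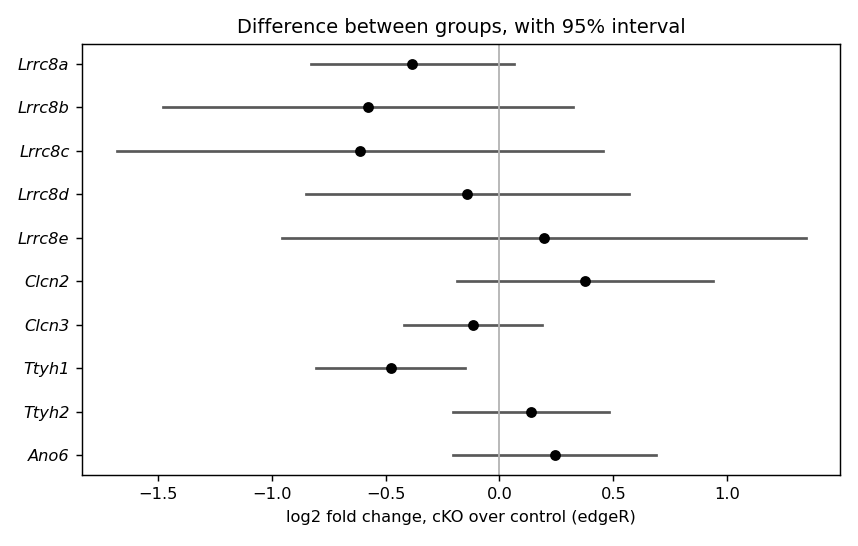
Points are log2 fold changes of cKO over control from edgeR and bars are 95% intervals. The interval of Ttyh1, from −0.80 to −0.15, is the one that does not reach 0, and the widest belong to Lrrc8e, Lrrc8c and Lrrc8b, which have 33 to 538 reads per library.

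Lrrc8a, the subunit that every volume-regulated anion channel needs, was at 227, 239.5, 140 and 135 CPM in the controls and at 146, 161, 139 and 123 CPM in the cKO libraries. Control S1 and S2 lay above every other library, while S6 and S7 lay among the cKO libraries, so the groups overlapped. The fitted log2 difference was −0.38 (standard error 0.21), the 95% interval ran from −0.83 to 0.062, and the adjusted p from edgeR was 0.576. It was −0.24 without control S2 and −0.50 without control S7. In these bulk samples fewer cells of a type and less RNA per cell cannot be told apart. The summed astrocyte markers had the same division among the controls, with 22855 and 21244 CPM in S1 and S2 and 15388 and 15077 CPM in S6 and S7, and cKO S4 was highest in its group for both. The part of the marker sum in the level of Lrrc8a was not tested.

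Lrrc8d, which lets the channel pass taurine and other organic osmolytes, was at 18.9, 10.3, 28.6 and 30.1 CPM in the controls and at 15.4, 18.2, 18.5 and 27.7 CPM in the cKO libraries. Every cKO value lay inside the control range. Its log2 fold change was −0.14 with a 95% interval from −0.85 to 0.57, and the sign turned in some alternatives: it was 0.12 with the level of Xist as a covariate, 0.18 with FPKM, and 0.011 and 0.059 without control S6 and control S7. It was −0.37 without control S2, −0.34 without cKO S8 and −0.024 without cKO S3. In the controls Lrrc8d had the same order of libraries as the summed markers of oligodendrocyte precursors, which were at 343, 468, 779 and 1151 CPM in S2, S1, S6 and S7. Oligodendrocyte markers (1572, 2285, 2588 and 3207 CPM) and neuronal markers (51.3, 61.8, 71.3 and 89.05 CPM) had that order too. In cKO the library with the most Lrrc8d, S8, had the lowest precursor sum, 236 CPM, and the lowest oligodendrocyte sum, 1055 CPM. The part of precursor, oligodendrocyte or neuronal RNA in Lrrc8d was not tested.

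Lrrc8c, a partner subunit that forms swelling-activated chloride channels with LRRC8A, varied most between libraries. It was at 14.5, 13.9, 8.95 and 25.5 CPM in the controls and at 9.60, 15.4, 2.17 and 13.9 CPM in the cKO libraries. The highest library, control S7, held 11.8 times the level of the lowest, cKO S5, which had 38 reads. The coefficient of variation was 44.4% in controls and 57.8% in cKO, against 8.29% and 6.29% for Clcn3. The fitted log2 difference was −0.61 with a 95% interval from −1.68 to 0.46. It was −0.27 without cKO S5 and also −0.27 without control S7, and its sign turned in the FPKM values, to 0.29.

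Lrrc8b was at 8.37, 3.42, 9.72 and 9.62 CPM in the controls and at 5.26, 4.22, 4.16 and 7.23 CPM in the cKO libraries. Control S1, S6 and S7 lay above all cKO libraries and control S2 lay below them. Its log2 fold change was −0.58, with a 95% interval from −1.48 to 0.32. Lrrc8e was the rarest member, with 33 to 61 reads per library and 1.56 to 2.81 CPM, and its log2 fold change of 0.20 had a 95% interval from −0.96 to 1.35. It was 0.32 without control S2 and 0.067 without control S7. At this depth a level up to 2.54-fold higher lies inside that interval.

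The make-up of the LRRC8 pool was then described as the share of each gene in the summed level per length, with no test. Lrrc8a made up 91.1%, 93.6%, 85.7% and 80.7% in the controls and 89.6%, 88.7%, 91.6% and 83.6% in the cKO libraries. The group means, 87.7% ± 5.755 and 88.4% ± 3.43 (SD, n = 4 each), differed by 0.632 percentage points, which is less than the spread between libraries. With the same counts divided by the exonic length that each LRRC8 gene shares with no other counted gene, the Lrrc8a means were 95.4% and 95.7%. These values apply if no read on the shared exons was counted. Lrrc8c and Lrrc8d followed, with 4.49% ± 2.705 and 4.03% ± 2.41 in controls and 3.56% ± 2.02 and 4.33% ± 1.48 in cKO (SD, n = 4 each). Lrrc8c was the most abundant partner of Lrrc8a in 5 libraries and Lrrc8d in 3, control S6, cKO S5 and cKO S8. That order changed with the length used. With the longest annotated transcript Lrrc8d had 8.28% in controls and 8.93% in cKO against 4.64% and 3.68% for Lrrc8c. Lrrc8e had 0.927% to 1.44% in controls and 1.49% to 1.79% in cKO, with no overlap, although its CPM values overlapped, and in shares of the FPKM values the groups overlapped too.

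**Figure D3:**
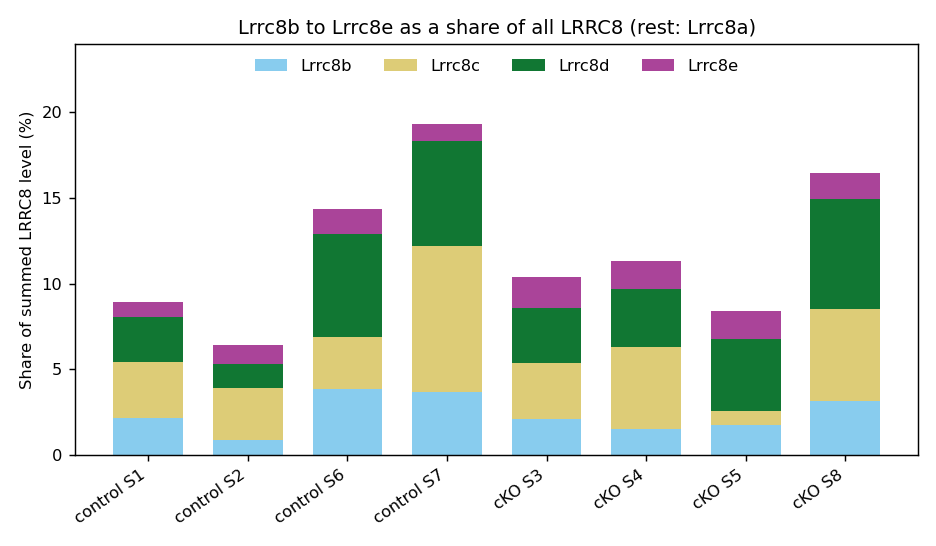
Each bar is 1 library and stacks the shares of Lrrc8b, Lrrc8c, Lrrc8d and Lrrc8e in the summed LRRC8 level (CPM per kilobase), with Lrrc8a as the remainder. The shortest bar is that of control S2 and the tallest that of control S7, which leave 93.6% and 80.7% to Lrrc8a.

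The summed LRRC8 level was 57.9, 59.4, 37.9 and 38.9 CPM per kilobase in the controls and 37.9, 42.1, 35.2 and 34.1 in the cKO libraries. As for Lrrc8a, which dominates the sum, control S1 and S2 stood above the rest.

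Clcn2, the inwardly rectifying chloride channel of the plasma membrane, was at 45.8, 39.4, 23.7 and 23.6 CPM in the controls and at 36.8, 43.1, 57.1 and 34.8 CPM in the cKO libraries. Only cKO S5 lay above the highest control. The fitted log2 difference was 0.37, with a 95% interval from −0.19 to 0.94 and an adjusted p from edgeR of 0.685, and it was 0.21 without cKO S5, 0.24 without control S6, 0.25 without control S7 and 0.57 without control S1. As for Lrrc8a, control S1 and S2, with the larger sums of astrocyte markers, were the higher controls, and the part of that in Clcn2 was not tested. Hepacam, whose product GlialCAM holds ClC-2 at cell contacts, was far more abundant per length, at 186 CPM per kilobase in controls and 205 in cKO as means. Its log2 fold change was 0.14, and that of Mlc1, a membrane protein that works with GlialCAM in astrocyte volume regulation, was 0.20, with adjusted p of 0.847 and 0.761 from edgeR.

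Clcn3 was the steadiest member. It was at 154, 142, 144 and 126 CPM in the controls and at 124, 123, 139 and 136 CPM in the cKO libraries. The highest library was 1.26 times the lowest. The cKO libraries S3 and S4 lay just below the lowest control. The log2 fold change was −0.12 with a 95% interval from −0.42 to 0.19, the narrowest of the 10, so that the interval runs from 0.747-fold to 1.139-fold. It was −0.073 without control S1.

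Ttyh1, a tweety homologue that is abundant in astrocytes and neural progenitors, showed the clearest separation. It was at 1834, 1758, 1503 and 1329 CPM in the controls and at 1132, 1223, 1185 and 1074 CPM in the cKO libraries. All 4 cKO libraries lay below all 4 controls, while the groups overlapped for the other 9 members. Libraries did not overlap for 6.34% of all genes tested, or 2.94% with cKO as the lower group. The means were 1606 ± 233 and 1154 ± 64.8 CPM (SD, n = 4 each), so that cKO was at 71.8% of control. On the log2 scale the difference was −0.48 (standard error 0.15), with a 95% interval from −0.80 to −0.15. The adjusted p from edgeR was 0.279, and it lay between 0.0558 (DESeq2) and 0.489 (without cKO S4, edgeR) in the alternatives. In the authors' deposited table Ttyh1 had a log2 fold change of −0.46 and an adjusted p of 0.0496, just inside the threshold of 0.05. It stayed between −0.55 and −0.41 when each library was left out in turn, and was −0.64 in the FPKM values. Within the controls and within the cKO libraries Ttyh1 had the same order of libraries as the summed astrocyte markers. The marker sums of cKO S3, S5 and S8 lay close together, at 18186 to 18332 CPM. Control S6 and S7 had lower marker sums than every cKO library and more Ttyh1 than every cKO library. That sum includes Aqp4, at 1588 and 1993 CPM in control S6 and S7 and 3373 to 5268 CPM in the cKO libraries. Without Aqp4 the sum of control S6 would not lie below that of cKO S8. The part of the marker sum in the level of Ttyh1 was not tested.

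Ttyh2 was at 147, 144, 121 and 179 CPM in the controls and at 147, 184, 160 and 159 CPM in the cKO libraries. The groups overlapped widely, at a log2 fold change of 0.14 and a 95% interval from −0.20 to 0.48. That value was 0.055 without control S6, 0.075 without cKO S4 and 0.25 without control S7. Ttyh3, the third gene of the family and not one of the 10 members, was at 639, 605, 532 and 708 CPM in the controls and at 380, 365, 380 and 422 CPM in the cKO libraries. The groups did not overlap. Its log2 fold change was −0.68 with a 95% interval from −0.9984 to −0.37, and its adjusted p was 0.0838 from edgeR, 0.0429 from limma-voom and 0.000624 from DESeq2. In the authors' deposited table its adjusted p was 0.000482 and its log2 fold change −0.66. Per length it was the second tweety gene, at 109 CPM per kilobase in controls and 68.0 in cKO as means.

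**Figure D4:**
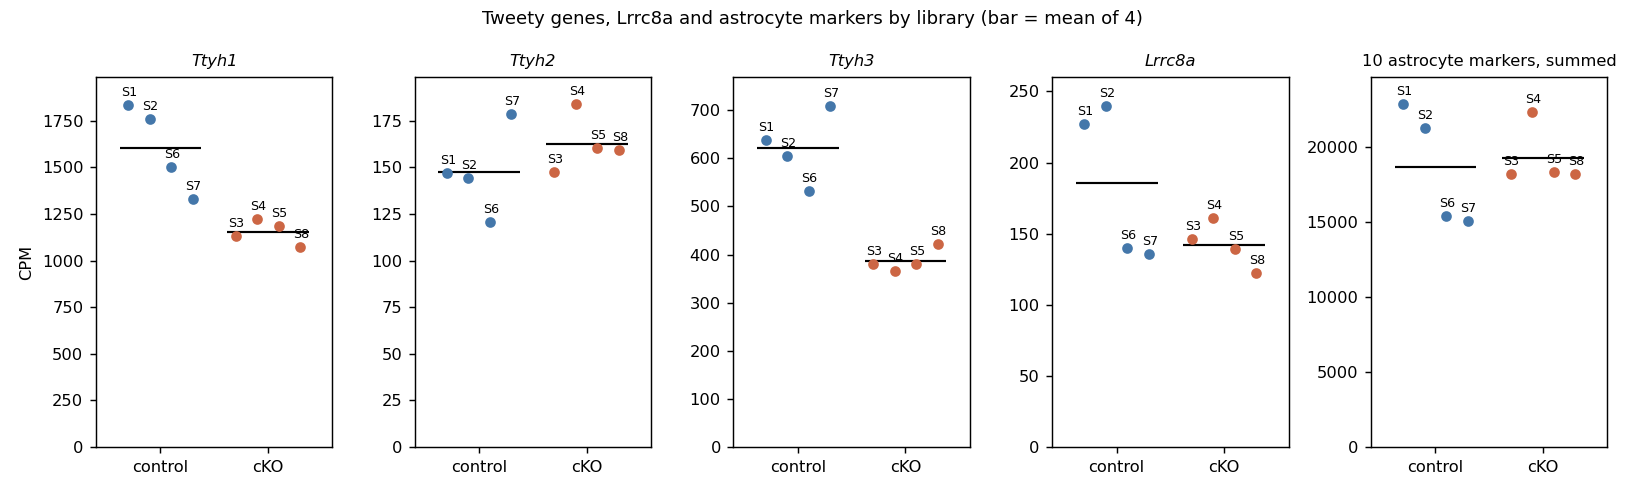
Points are CPM in single libraries on axes that start at 0, with the library number beside each point and the mean of 4 libraries as a bar. For Ttyh1 and Ttyh3 all cKO points lie below all control points, while Ttyh2, Lrrc8a and the sum of 10 astrocyte markers overlap.

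Ano6 was at 43.9, 41.0, 32.8 and 37.8 CPM in the controls and at 46.0, 48.9, 32.1 and 56.9 CPM in the cKO libraries. The cKO libraries S3, S4 and S8 lay above every control, and cKO S5 lay below every control. Its log2 fold change was 0.24 with a 95% interval from −0.20 to 0.69, and an adjusted p from edgeR of 0.754. It was 0.39 without cKO S5 and 0.12 without cKO S8, with adjusted p from edgeR of 0.665 and 0.904.

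Other genes of the same functions were counted in 4 lists. Of 27 other chloride channel genes 13 could be tested, and edgeR called 0, with 0.318% of all genes called. At an unadjusted p under 0.05 there were 3 above 0 (Clcn6, Clic1 and Ano3) and 2 below 0 (Ttyh3 and Ano4), against 9.81% of all genes tested. DESeq2 called 2 of them, Ttyh3 and Ano4, with 2.49% of its genes called, and limma-voom called 1, Ttyh3, with 0.325% of genes called. Ano4, a TMEM16 relative of Ano6, was at 3.42 to 8.18 CPM in controls and 0.770 to 1.84 CPM in cKO, with a log2 fold change of −2.03 and an adjusted p from edgeR of 0.185. Ano3, of the same family, was at 0.0947 to 2.31 CPM in controls and 3.17 to 6.03 CPM in cKO, with a log2 fold change of 2.27 and an adjusted p from edgeR of 0.3605. Clic1 was at 23.5 CPM in cKO S5, against 1.90 to 5.44 CPM in the other libraries of both groups. Clcn6, Clic1, Ano4 and Ano3 were named after their values were seen. Clic4, the most abundant of the list per length after Ttyh3, was at 306 ± 49.0 and 333 ± 65.4 CPM (SD, n = 4 each). The median log2 fold change of the list was −0.055, against −0.017 over all genes. Among the 14 genes too low to test were Cftr, Best1, Best2, Best3, Ano1, Ano2 and Clcn1.

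Of 8 genes for organic osmolytes, the solutes that cells gain or release to adjust their volume, 7 were tested and edgeR called 1, Slc38a2, with 0.318% of all genes called. By an unadjusted p under 0.05 there were 2 above 0 (Slc38a2 and Slc5a3) and 0 below 0, against 9.81% of all genes tested. The sodium-coupled neutral amino acid transporter gene Slc38a2, which hypertonic stress induces, rose from 77.3, 53.9, 57.8 and 90.2 CPM in the controls to 137, 197, 129 and 151 CPM in the cKO libraries. All cKO libraries lay above all controls. The rise was 1.13 on the log2 scale (standard error 0.20), with an adjusted p from edgeR of 0.0363. The call was lost without any one of 7 libraries, with adjusted p from edgeR of 0.0595 to 0.158, and held without control S7. With all libraries the adjusted p was 0.0308 from limma-voom, 0.000169 from DESeq2 and 0.000144 in the authors' deposited table. From limma on FPKM it was 0.135 with a pseudocount of 0.1 and 0.118 with 1. Nfat5, the transcription factor of the hypertonic response, was at 181 to 235 CPM in controls and 247 to 258 CPM in cKO, with a log2 fold change of 0.30 and an adjusted p from edgeR of 0.523. The taurine transporter gene Slc6a6 had a log2 fold change of 0.048 with an adjusted p from edgeR of 0.9749, and the myo-inositol transporter gene Slc5a3 one of 0.65 with an adjusted p from edgeR of 0.366. Slc6a6 and Slc5a3 were named after their values were seen. The median log2 fold change over the list was 0.31.

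Of 6 partners and auxiliary subunits 5 were tested and edgeR called 0, with 0.318% of all genes called. At an unadjusted p under 0.05 there was 1, against 9.81% of all genes tested. It was Ostm1, the partner of ClC-7, at a log2 fold change of −0.56 and an adjusted p from edgeR of 0.333. Ostm1 was named after its values were seen. Of 14 phospholipid scramblase and flippase genes, the group to which Ano6 belongs by its scrambling, 13 were tested and edgeR called 0. At an unadjusted p under 0.05 there was 1, against the same 9.81% of all genes tested. It was Atp11b, at −0.77, also named after its values were seen. The most abundant genes of this list per length over all libraries were Tmem30a, the shared subunit of flippases, at 115 ± 25.9 and 86.8 ± 18.2 CPM, and Atp8a1 at 157.5 ± 19.5 and 148 ± 21.1 CPM (SD, n = 4 each). In both lists DESeq2, with 2.49% of its genes called, and limma-voom, with 0.325%, also called 0. The medians of the lists were 0.14 and −0.087.

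**Figure D5:**
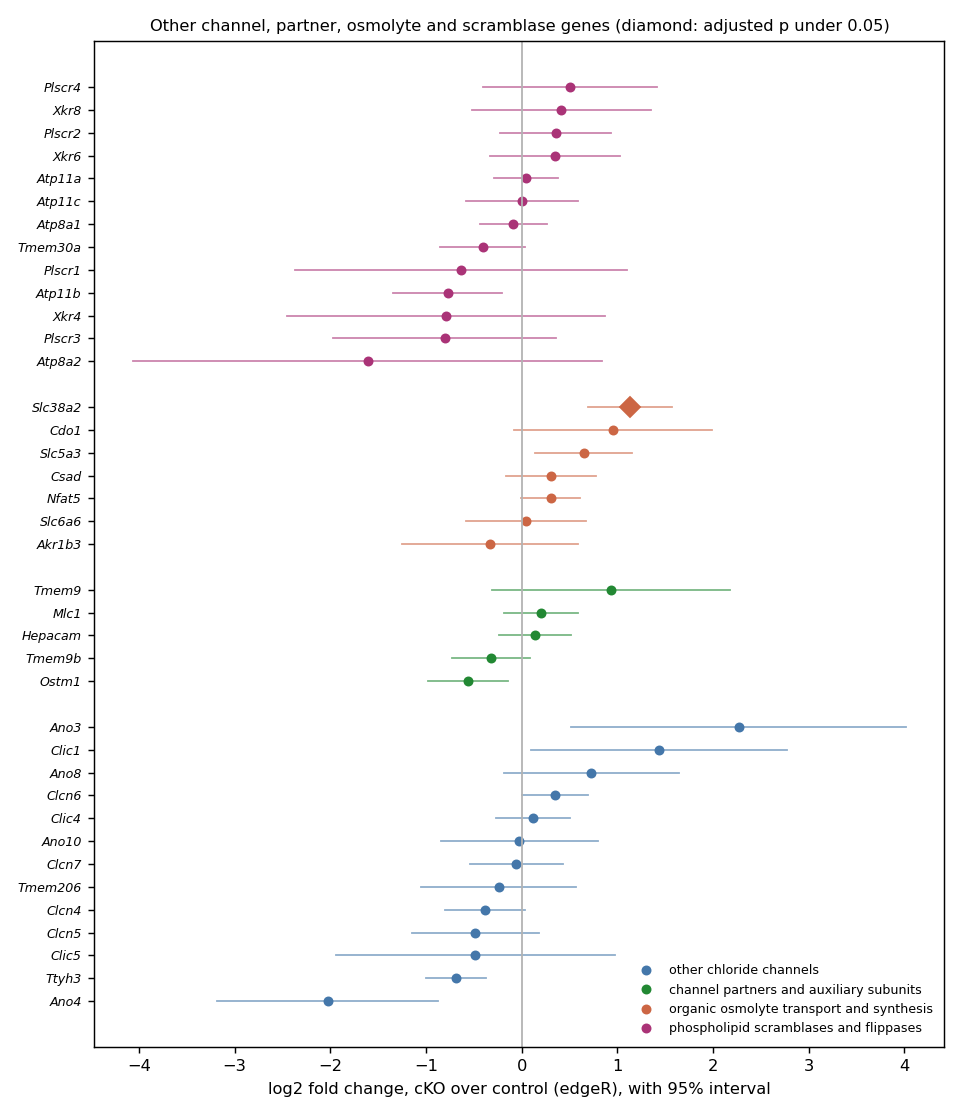
Points are log2 fold changes from edgeR with 95% intervals for the tested genes of the 4 lists, ordered by size within each list. Slc38a2 is the single diamond, the mark of an adjusted p under 0.05.

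The genes whose log2 CPM moved most like that of 2 members over the 8 libraries were found among 9521 others with a mean of at least 5 CPM. For Lrrc8a these were Acsl3, Prnp and Slc39a10, with a root mean square difference of 0.089, 0.12 and 0.13 on the log2 scale after centring, where the median gene differed by 0.51. Acsl3, a long-chain acyl-CoA synthetase, was at 1158 and 1110 CPM in control S1 and S2 and between 587 and 802.5 CPM in the other 6 libraries, the same division that Lrrc8a showed. For Ttyh1 they were Ntrk2, Shisa4 and Tspan3, with differences of 0.073, 0.082 and 0.088, against a median of 0.47. Ntrk2, which encodes the neurotrophin receptor TrkB, was at 1032 to 1440 CPM in controls and 829 to 866 CPM in cKO, without overlap, and its adjusted p from edgeR was 0.2499. These genes were picked for their likeness in these libraries, which share their depth and composition, so the likeness is a description.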

How the data were processed

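RNA-seq of 8 sorted astrocyte samples was analysed from the deposited files. The submitters' processing notes list FastQC 0.11.4, TopHat2 2.0.11, Bowtie2 2.2.3, HTSeq 0.6.1p1, DESeq2 1.14.1, Cuffnorm and Cufflinks 2.2.1, with the build GRCm38. The annotation release and the strand setting are not given in the sources used here. The authors deposited raw counts per gene and library, whose 5 summary lines name no gene, held 56.4% to 61.7% of all reads and were left out. The authors also deposited FPKM values for 39171 identifiers. Their column names match the libraries, but over 13791 genes 3 of 8 columns matched best with the counts of their namesake and 8 of 8 with a library of their group, so FPKM values were used by group only. The deposited comparison holds, per the file headers, group means of scaled counts (a signal), a log2 fold change, its standard error and Wald statistic (scores), and p-values.

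Counts were tested with edgeR 4.0.16 in R 4.3.3 (TMM, filterByExpr, quasi-likelihood, no covariate), cKO over control, with Benjamini-Hochberg adjustment over the 14757 genes tested and a threshold of 0.05. The interval of a log2 fold change comes from its standard error, which was derived from the F statistic, and the t distribution. CPM per kilobase is CPM divided by the union of exons in GENCODE M21. The procedure was tested on simulated data. The alternatives were RLE size factors, library totals, a minimum of 1 count in some library, a minimum of 10 counts in each library, DESeq2 1.42.0, limma-voom (limma 3.58.1), limma on log2(FPKM + 0.1) and log2(FPKM + 1), Xist as a covariate, and each library left out. On these log2 scales with an added constant, changes of low genes are understated.

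The 10 members, Kcnj10, the called and the 2 most abundant genes of each list, overlapping genes and the 3 genes most like Lrrc8a and Ttyh1 were named by rule. The members and lists were chosen with earlier results of these data known.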

Additional observations from a re-analysis of the deposited data

Results flagged for a closer look

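Of 56 groups of 4 libraries examined, 5 held a library far from the other 3, where chance gives about 1 in 20, or 2.8. The share of Lrrc8c in the summed LRRC8 level was 8.55% in control S7, against 3.06% to 3.28% in the other controls. The summed astrocyte markers were at 22300 CPM in cKO S4, against 18186 to 18332 CPM in the other cKO libraries. Neuronal markers summed to 56.8 CPM in cKO S5, against 34.5 to 36.6 CPM in the others of its group. Mural markers summed to 29.8 CPM in control S7, against 47.4 to 49.05 CPM in the other controls. Erythroid markers summed to 1.25 CPM in cKO S5, against 0 to 0.0511 CPM in the other cKO libraries, at a level of few reads.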

How the results depend on the processing

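The count of 0 of 10 members held in all 18 alternatives, 8 of which left out 1 library. DESeq2 restricted to the genes that edgeR tested, and the exon length that no other gene shares, were chosen after seeing the data. Against 47 genes called overall (30 higher, 17 lower), a filter of 1 count in any library gave 87, one of 10 counts in every library 84, Xist as a covariate 28, DESeq2 384 (306 on the genes that edgeR tested), FPKM with a pseudocount of 0.1 gave 8 and with 1 gave 7, and leaving out each library gave 4 (without cKO S4) to 45. Library totals gave 62, of which 77.4% were higher against 63.8%, and moved the median log2 fold change of all genes by 0.108. No member changed its sign there. Members changed sign only as follows: Lrrc8c was at 0.29 and 0.27 with FPKM at the 2 pseudocounts. Lrrc8d was at 0.18 and 0.17 with FPKM, at 0.12 with Xist as a covariate, and between −0.37 and 0.059 when each library was left out. The causes were not tested.

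Other chloride channels past the threshold numbered 2 with DESeq2, 2 with DESeq2 on the genes that edgeR tested and 1 with limma-voom, against 0. Osmolyte genes past the threshold numbered 0 with FPKM at both pseudocounts and 0 to 1 when each library was left out, against 1, and adjusted p of Slc38a2 ranged from 5.995e-05 to 0.158. The share of Lrrc8a in controls was 83.5% with the longest transcript, 95.4% with unshared exon length and 85.6% with FPKM. In cKO it was 83.8% with the longest transcript, 95.7% with unshared exon length and 83.9% with FPKM. It was 85.8% to 90.1% in controls and 87.3% to 89.98% in cKO when each library was left out. Kcnj10 lay between −6.12 and −5.61 on the log2 scale in all 18 alternatives. No paired analysis was possible because the groups share no replicate number. Depth limits Lrrc8e most, with 33 to 61 reads per library.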
